A study of Mus musculus with 6 samples.

Results

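Ubiquitin-conjugating (E2) enzyme genes were examined in lumbar spinal cord of mice labelled Egr3-deficient or wild type. The members were the probe sets on 2 Affymetrix array types, called A and B here, whose single platform gene symbol starts with Ube2. They numbered 50 of 22626 probe sets on type A and 34 of 22511 on type B. Because 3 probe sets lie on both types, these are 81 distinct probe sets of 45037, with 33 gene symbols of 18194. A further 4 probe sets whose several symbols include one starting with Ube2 are not members. The prefix is not a perfect mark of the enzyme family, since Ube2cbp encodes a ligase and Ube2d-ps is a pseudogene.

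The series holds 6 arrays, made from 3 RNA pools on each of the 2 array types. Each pool combined total RNA of lumbar segments L3 to L5 from 3 cords of mice at postnatal day 27. Pools 1 and 2 are labelled Egr3-deficient and the third pool wild type. They are named by their labels, which the Egr3 probe sets did not bear out, as given at the end. The labels of pool 2 and wild type also record an acclimatization, which pool 1's labels do not. The type A and type B arrays of a pool are separate labelled extracts of the same RNA, so they are not biological replicates. The labels give no allele, sex or strain. The series title names fusimotor neurons as the cells of interest, which are a small share of a whole lumbar cord. In such bulk RNA, fewer cells of a type and less RNA per cell cannot be told apart. With 2 pools against 1, a probe set's own spread comes only from the 2 pools labelled Egr3-deficient, with 1 residual degree of freedom. The wild-type pool has no spread of its own. Moderation adds a spread estimated from all tested probe sets, weighted as 6.54 degrees of freedom on type A and 52.3 on type B. The probe set p-values below thus rest mostly on that common spread, most of all on type B.

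Ubiquitin is attached to proteins by a relay. An activating enzyme (E1) loads ubiquitin onto the active cysteine of an E2, and the E2 hands it to a substrate with the help of a ligase (E3). The E2 often sets the outcome: K48-linked chains mark proteins for the proteasome, K63-linked chains serve in signalling, endocytosis and DNA repair, and other E2s carry ubiquitin-like modifiers such as NEDD8. Neurons rely on this system for turnover of synaptic proteins.

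Intensities below are the deposited values. Over the 100 probe sets on both types, their median ratio to wild type on type B was 1.92 in pool 1 and 1.45 in pool 2. On type A it was 1.08 and 1.07. A higher printed intensity on type B is therefore not by itself a rise. Differences are log2(intensity + 16) of a pool labelled Egr3-deficient minus wild type after quantile normalization within an array type, so they need not equal the ratio of the printed intensities. A probe set was tested if its mean lay above the 40th percentile of its array type, which 44 of 50 Ube2 probe sets did on type A and 25 of 34 on type B.

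On type A, 20 of the 44 tested Ube2 probe sets (45.5%) lay below wild type in both pools labelled Egr3-deficient, against 34.8% of all 13576 probe sets tested. Above wild type in both were 13 (29.5%), against 47.9%, and 11 were split between the pools. At least 2-fold lower in both pools were 3 (6.82%), against 4.35% of all, and at least 2-fold higher were 0, against 1.2%. Pool 1 alone gave 8 at least 2-fold lower and pool 2 alone gave 4. Under limma's moderated test with Benjamini-Hochberg adjustment 0 of 44 passed 0.05, against 0.0663% of all probe sets. At an unadjusted p under 0.05, 11 were lower (25%, against 12.7% of all) and 2 were higher (against 7.93%). Probe sets of one gene are not independent: Ube2d3 alone gave 7 of the 20 below wild type in both pools and 5 of these 11. The rest of the 11 were of Ube2b, Ube2v2, Ube2g1 and Ube2k. The median difference was -0.02, against 0.114 over all probe sets tested.

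On type B, 12 of 25 (48%) lay below wild type in both pools, against 36.6% of all 13507 tested, 11 (44%) lay above in both, against 38.9%, and 2 were split. In limma's test 2 fell (against 0.607% of all) and 0 rose (against 1.02%): Ube2v2 and Ube2q2. The adjusted p passed 0.05 for neither of them under 7 of 10 alternative settings, which include no normalization, a pseudocount of 1 and no filter. At least 2-fold lower in both pools was 1 probe set, of Ube2w, against 1.8% of all. It was tested only through its wild-type value, since both pools read below the filter's intensity of 55.9, so nothing is read from that count. At least 2-fold higher was 1, of Ube2r2 (against 4.27%). At an unadjusted p under 0.05, 5 were lower (20%, against 6.83%) and 4 higher (against 7.4%). The median was -0.136, against 0 over all probe sets tested. This balance turned on the scaling: centred on the probe sets that both array types share, 17 of the 25 lay below wild type in both pools and 8 above, the members' median was -0.723 and that of all probe sets -0.664.

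**Figure D1:**
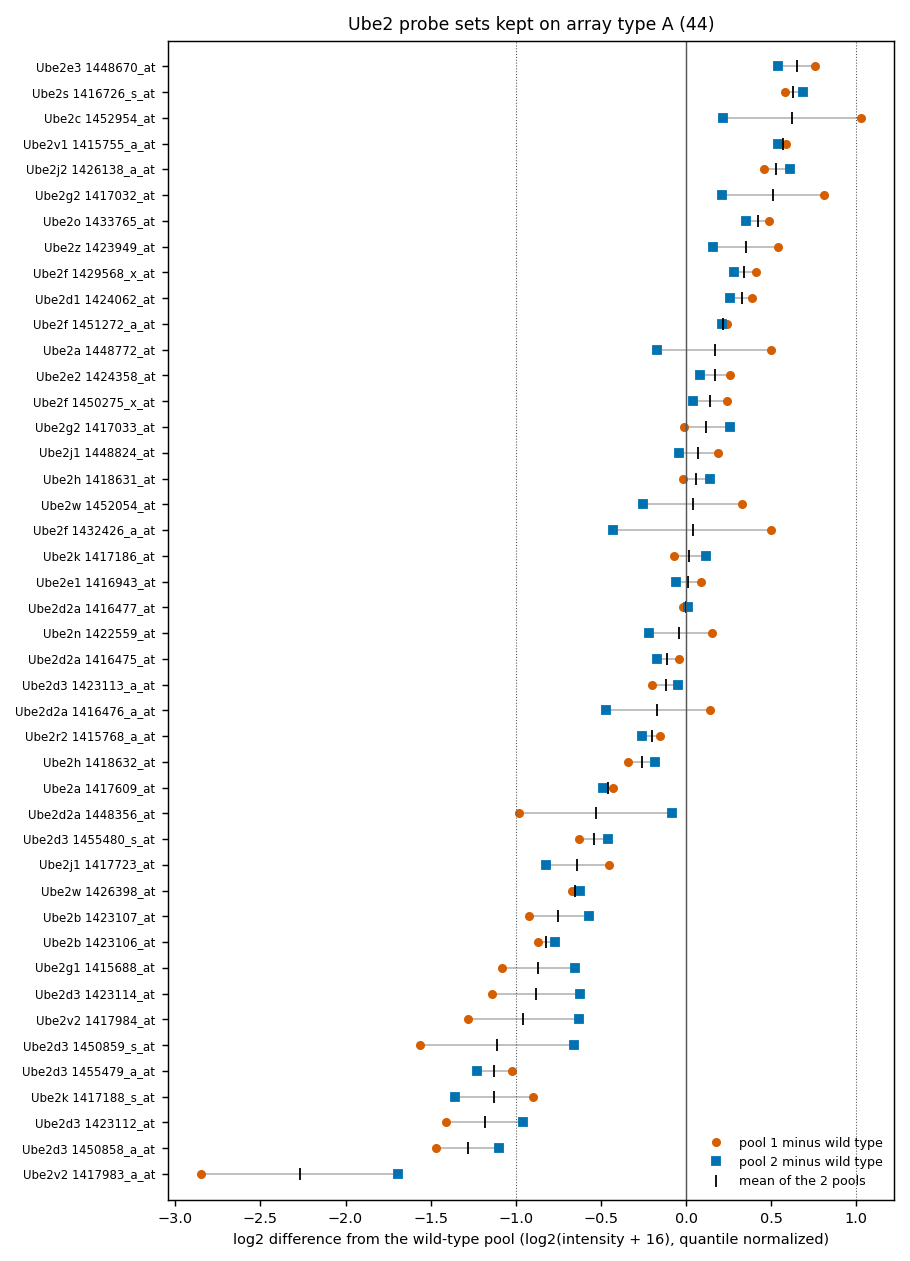
Log2 difference from wild type of the 44 Ube2 probe sets tested on array type A, 1 row per probe set, with pool 1 as circles, pool 2 as squares and a bar at their mean; dotted lines mark 2-fold. The lowest row is a Ube2v2 probe set at a mean of -2.27 and the highest is Ube2e3 at 0.65.

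**Figure D2:**
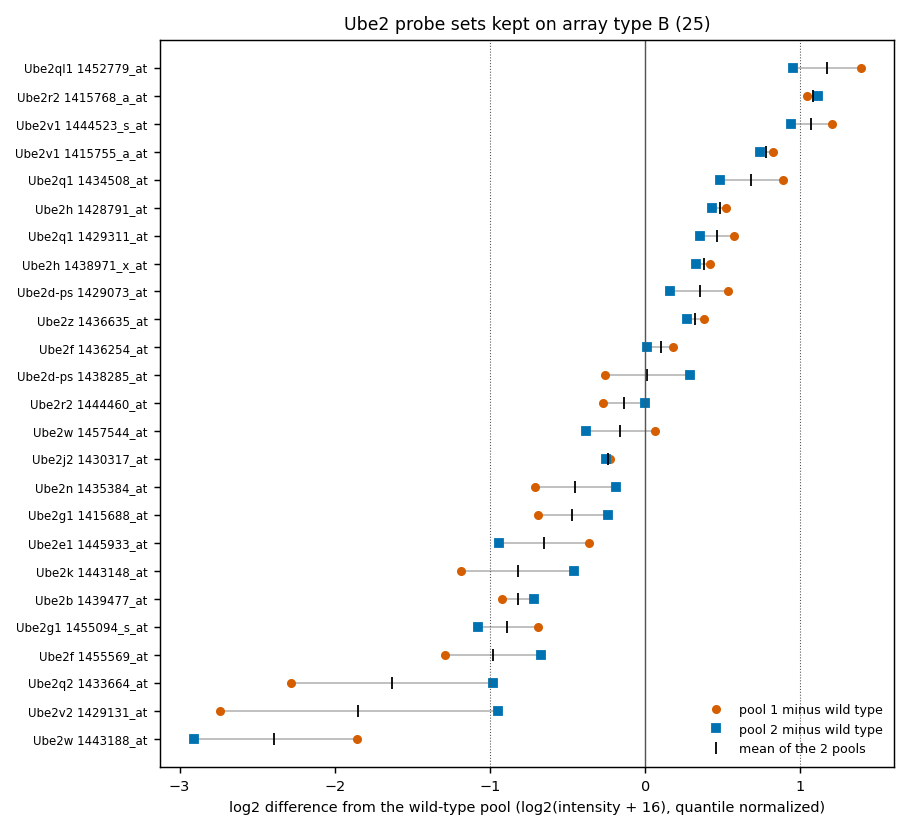
The same for the 25 Ube2 probe sets tested on array type B, where the highest mean is 1.17, for Ube2ql1, and the lowest row is a Ube2w probe set whose 2 pools read below the filter's intensity. Both pools of Ube2v2 and Ube2q2 lie left of wild type, pool 1 farther than pool 2.

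Ube2v2 encodes a catalytically inactive E2 variant that pairs with Ube2n to build K63-linked chains. On type B its probe set 1429131_at read 806 in wild type, 112 in pool 1 and 454 in pool 2. Both pools labelled Egr3-deficient were below wild type, pool 1 far more than pool 2, at differences of -2.74 and -0.95. The mean of -1.85 (SE 0.49) passed limma's test with an adjusted p of 0.0352. Between its 2 pools the standard deviation was 1.27, so that SE rests on the moderated spread. Limma's adjusted p-values ranged from 0.00339 to 0.474 over 10 alternative settings. On type A, 1417983_a_at read 51, 146 and 503 in pool 1, pool 2 and wild type, the order used from here on, with a mean difference of -2.27 (SE 0.48, limma adjusted p = 0.161). A second type A probe set, 1417984_at, read 28.6, 61.6 and 106 and had a mean of -0.96 (limma adjusted p = 0.224). All 3 tested Ube2v2 probe sets ordered the pools alike, lowest in pool 1 and highest in wild type. One more, 1429132_at on type B, was left out as too dim, at 7.27, 10.9 and 41.4.

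Ube2v1, the close relative of Ube2v2 and likewise a partner of Ube2n, lay on the other side of wild type. Its probe set 1444523_s_at on type B read 6780, 4270 and 1930 in pool 1, pool 2 and wild type. The difference averaged 1.07 (SE 0.31, limma adjusted p = 0.0533). The probe set 1415755_a_at, present on both types, read 609, 563 and 388 on type A and 2850, 2240 and 1180 on type B, with means of 0.57 (SE 0.27) and 0.78 (SE 0.35). Both pools labelled Egr3-deficient exceeded wild type at all 3 measurements, and none passed. Centred on the probe sets that both array types share, the type B means became 0.89 for 1444523_s_at and 0.51 for 1415755_a_at. With that centring Ube2v2 1429131_at had -2.32. An identifier ending in _s_at means that probes may match more than 1 gene's transcripts, so 1444523_s_at may not measure Ube2v1 alone. Ube2n, the catalytic partner, read 393, 298 and 354 at its type A probe set, with pool 2 below and pool 1 above wild type and a mean difference of -0.04. On type B its mean was -0.45.

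Ube2q2, the other gene that passed, encodes an E2 with a long amino-terminal extension. Its single probe set, 1433664_at on type B, read 178, 484 and 871. The differences were -2.28 and -0.98, a mean of -1.63 (SE 0.46, limma adjusted p = 0.0487), again with pool 1 the lower. Between its 2 pools the standard deviation was 0.92. Over the alternatives its adjusted p ranged from 0.011 to 0.474. The related Ube2q1 and Ube2ql1 lay above wild type in both pools. Ube2ql1 read 2050, 1270 and 607 with a mean difference of 1.17 (SE 0.38, limma adjusted p = 0.0999). The Ube2q1 probe set 1434508_at read 783, 553 and 378 with a mean of 0.68, and 1429311_at read 1680, 1210 and 875 with a mean of 0.46. Centred on the probe sets that both array types share, these 2 means became 0.2 and 0.12. With that centring Ube2ql1 had 0.81 and Ube2q2 -2.09.

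**Figure D3:**
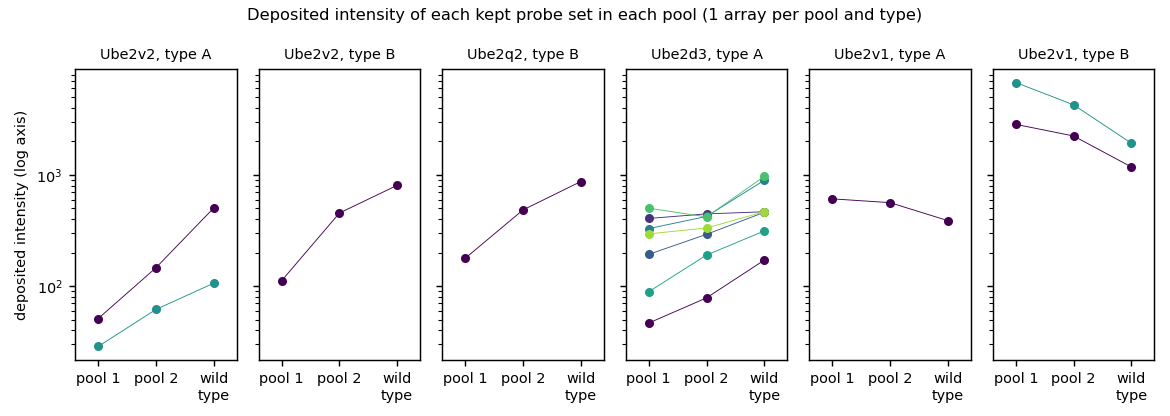
Deposited intensity on a log axis in pool 1, pool 2 and wild type, 1 array each, for every tested probe set of Ube2v2, Ube2q2, Ube2d3 and Ube2v1; lines join the values of 1 probe set and the pools have no order. Ube2v2 and Ube2q2 run from 112 and 178 in pool 1 to 806 and 871 in wild type on array type B, while Ube2v1 runs the other way.

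Egr3 is a zinc-finger transcription factor of the EGR family, which binds GC-rich elements. Upstream letters of the members were therefore searched for GCGNGGGCG on both strands, in the 250 bases before each RefSeq gene start (GRCm38.p6). Of the 33 member genes 27 had a window, and Ube2d2a, Ube2e3, Ube2g2, Ube2o, Ube2v2 and Ube2w had none. The letters occurred for 4 of the 27 genes (14.8%), against 1440 of 27025 genes (5.33%). They are shown because Ube2q2, which passed the test, and Ube2r2, which differed most between array types, are among the 4. Capitals mark the match, with 10 bases on either side, and each line runs along the gene's strand.
Ube2q2: tcggggccggGCGGGGGCGgacctgggcg
Ube2r2: cccttaggccCGCCCCCGCccggcccgag
Ube2d1: gacgacgtccGCGCGGGCGgcagaggccg
Ube2e2: gcacgcgccgGCGGGGGCGgggctaaatc

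The Ube2q2 stretch lies at chr9:55149850-55149878 on the plus strand, its match 223 bases before the start. That of Ube2r2 is at chr4:41135829-41135857 on the plus strand, with the motif on the opposite strand 182 bases before the start. Those of Ube2d1 and Ube2e2 are at chr10:71285332-71285360 and chr14:18893801-18893829 on the minus strand, 88 and 48 bases before a start. Before another start site, Ube2e2 has a match 190 bases upstream at chr14:18893585-18893613. On the opposite strand it has one 74 bases before the same start, at chr14:18893469-18893497. A match describes letters only and is not a binding site. The genes that carry it showed no common direction: the mean was -1.63 for Ube2q2, 0.33 for Ube2d1 and 0.17 for Ube2e2, while Ube2r2 ran from -0.2 to 1.08.

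The UBCH5 family works with very many ligases. On type A, 9 of its 12 tested probe sets lay below wild type in both pools, 1 lay above, and the group median was -0.54. Most of these belong to Ube2d3, whose 7 probe sets were all below wild type in both pools. Probe set 1455479_a_at read 502, 419 and 969, a mean difference of -1.13 (SE 0.27). Probe set 1450858_a_at read 329, 423 and 895, a mean of -1.28 (SE 0.3), and limma's adjusted p was 0.161 for both. These 2 Ube2d3 probe sets and Ube2v2 1417983_a_at are the 3 that lay 2-fold or more under wild type in each pool.

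The other Ube2d3 probe sets spread widely. Probe set 1423112_at read 46.5, 78.3 and 171 (mean -1.18), 1450859_s_at read 89, 190 and 313 (mean -1.11), and 1423114_at read 193, 292 and 461 (mean -0.88). Probe set 1455480_s_at read 295, 333 and 466 (mean -0.54). At 1423113_a_at, which read 406, 446 and 466, the mean was only -0.12. Of the relatives, Ube2d1 read 346, 312 and 262, above wild type in both pools with a mean of 0.33 (limma adjusted p = 0.543). The 4 tested Ube2d2a probe sets had means from -0.53 to 0; the lowest, 1448356_at, read 273, 520 and 550 and so rested on pool 1.

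Ube2a and Ube2b are the mouse RAD6 enzymes, which ubiquitinate histone H2B and the DNA clamp PCNA. Ube2b was below wild type in both pools at every tested probe set. It read 186, 208 and 370 at 1423106_at (mean -0.82, SE 0.31) and 242, 315 and 477 at 1423107_at (mean -0.75, SE 0.31), both on type A. At 1439477_at on type B it read 178, 217 and 359, a mean of -0.82. None passed limma's test (adjusted p = 0.205, 0.235 and 0.421). Ube2a did not share one direction: 1417609_at read 187, 184 and 268 (mean -0.46), while 1448772_at read 530, 319 and 366 (mean 0.17) with the pools on opposite sides.

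Among the E2s of K48-linked chains and degradation at the endoplasmic reticulum, 4 of 9 tested probe sets on type A and 4 of 6 on type B lay below wild type in both pools. Above in both were 2 and 1. Ube2g1, a builder of K48-linked chains, read 273, 371 and 589 at 1415688_at on type A, a mean of -0.87 (SE 0.32, limma adjusted p = 0.199). On type B, 1455094_s_at read 324, 244 and 506 (mean -0.89), and 1415688_at again lay below wild type (mean -0.47). Ube2k, which builds K48-linked chains without needing a ligase, was below wild type at 1417188_s_at on type A (49, 37.1 and 121, mean -1.13) and at 1443148_at on type B (51.5, 106 and 161, mean -0.82). Its probe set 1417186_at read 638, 703 and 649 and differed by 0.02.

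The membrane-anchored E2s of endoplasmic reticulum degradation were divided. Ube2j1 read 392, 296 and 533 at 1417723_at (mean -0.64) but had a mean of 0.07 at 1448824_at. Ube2j2 read 353, 391 and 256 on type A (mean 0.53, limma adjusted p = 0.33), above wild type in both pools, and had a mean of -0.24 at another probe set on type B. Ube2g2 had means of 0.51 and 0.12. Ube2r2, related to the cullin-ligase E2 Cdc34, is described with the probe sets on both types.

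Both tested E2s of the anaphase-promoting complex, a ligase of dividing cells, lay above wild type in both pools. Ube2s, which extends its chains, read 770, 796 and 490 (mean 0.63, SE 0.26, limma adjusted p = 0.233). Ube2c, which starts them, was dim at 59.5, 32.3 and 25.5. Only pool 1 exceeded the filter's intensity of 36.7, so its mean of 0.62 (SE 0.41) rests on that pool. In the UBE2E family, Ube2e3 read 742, 611 and 418 (mean 0.65, SE 0.28, limma adjusted p = 0.241), the highest mean of the type A members. Ube2e2 read 494, 423 and 404 (mean 0.17), and Ube2e1 had a mean of 0.01 on type A and of -0.65 on type B, where it read 141, 92.7 and 202.

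Ube2f, which carries NEDD8 to cullins, had 4 tested probe sets on type A with means from 0.04 to 0.34, the last at 1429568_x_at, which read 243, 224 and 188. On type B, 1455569_at lay below wild type at 101, 175 and 292 (mean -0.98, limma adjusted p = 0.316) and 1436254_at had a mean of 0.1. Ube2w, which ubiquitinates protein amino termini, read 44.8, 16.2 and 233 at 1443188_at on type B. Both pools were below wild type and below the filter's intensity of 55.9, so the size of the difference depends on the pseudocount: the mean was -2.39 as tested (SE 0.76, limma adjusted p = 0.0895), -1.6 with a pseudocount of 64 and -2.93 with 1. At the 60th percentile filter the probe set was not tested. The type A probe set 1426398_at read 220, 233 and 372 (mean -0.65, limma adjusted p = 0.268), with both pools below wild type. The other 2 Ube2w probe sets had means of 0.04 and -0.16 with the pools on opposite sides.

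Of the remaining genes, Ube2z, which carries ubiquitin or FAT10 from the activating enzyme Uba6, had means of 0.35 and 0.32. Ube2o, a large enzyme that combines E2 and E3 activity, read 138, 130 and 104 (mean 0.42, limma adjusted p = 0.469). Ube2h, the E2 of the CTLH ligase, had means of -0.26 and 0.06 on type A. On type B it read 1140, 939 and 643 at 1428791_at (mean 0.48) and 1920, 1540 and 1090 at 1438971_x_at (mean 0.38), above wild type in both pools. Centred on the shared probe sets, those type B values became 0.09 and 0.07. The pseudogene symbol Ube2d-ps had means of 0.01 and 0.35. Too dim to test were 6 Ube2 probe sets on type A and 9 on type B. They include every probe set of Ube2cbp, Ube2d2b, Ube2l6, Ube2t and Ube2u. Ube2l6, the E2 for the interferon-induced modifier ISG15, read 19, 7.57 and 1.84.

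Probe sets of one gene were then compared. Of the 20 genes with 2 or more tested, 4 (Ube2b, Ube2d3, Ube2g1 and Ube2v2) lay below wild type in both pools at every one. Another 3 (Ube2q1, Ube2v1 and Ube2z) lay above, and the other 13 were mixed. The share over all genes with 2 or more tested probe sets was not computed, and both pools share the single wild-type pool. Nothing is therefore read from these counts. The range between a gene's mean differences within type A was 1.31 for Ube2v2, 1.16 for Ube2d3 and 1.15 for Ube2k. For Ube2b it was only 0.07, and its type B probe set had the same mean, -0.82, as the lower type A one. Ranges of 2.43 for Ube2w, 1.32 for Ube2f and 1.28 for Ube2r2, and the narrow one of Ube2z (0.03), join a type A value to a type B value. The types were normalized separately, so those ranges also carry the scaling, and that of Ube2w the probe set near background.

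Differences between probe sets of one array type were tested as the ratio of 2 probe sets within an array, in which a scaling shared by all probe sets of an array cancels. With limma, 0 of 41 Ube2 pairs on type A and 0 of 8 on type B passed an adjusted 0.05, and 0% of all 6336 and 3967 same-gene pairs did. At an unadjusted p under 0.05 there were 5 of 41 on type A and 2 of 8 on type B, against 7.42% and 7.49% of all pairs. Pairs of one gene share probe sets, so they are not independent. On type A the Ube2d3 pairs among the 5 all included 1423113_a_at. The median size of a Ube2 pair's difference was 0.34 on type A, against 0.3 for all pairs, and 0.38 on type B, against 0.48.

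The ratio had one sign in both pools for 25 of 41 Ube2 pairs on type A and 6 of 8 on type B; both pools share the single wild-type array, so nothing is read from that. On type A the 2 tested probe sets of Ube2v2 differed by -1.57 and -1.06, a mean of -1.31 (SE 0.38). Ube2d3 1450858_a_at differed from 1423113_a_at by -1.27 and -1.06, a mean of -1.16 (SE 0.34). Ube2k 1417186_at differed from 1417188_s_at by 0.83 and 1.48, a mean of 1.16 (SE 0.4). On type B, Ube2r2 1415768_a_at differed from 1444460_at by 1.31 and 1.11, a mean of 1.21 (SE 0.47, limma adjusted p = 0.653). The type B pair of Ube2w had the largest fitted mean, but 1 of its probe sets is the one near background. Which transcript forms these probe sets read was not analysed here.

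**Figure D4:**
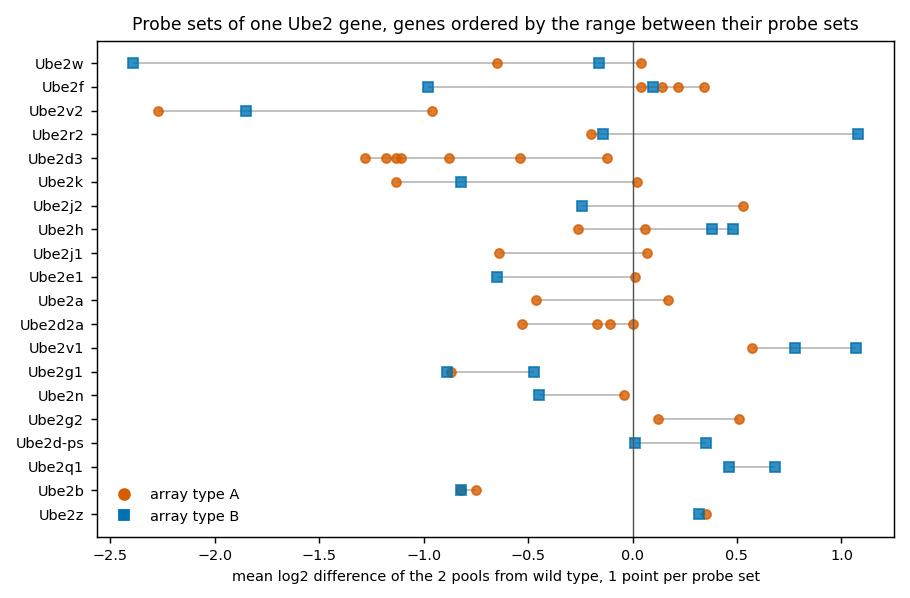
Mean log2 difference from wild type of each tested probe set, 1 row per gene with 2 or more, circles for array type A and squares for array type B, ordered by range. Ube2w, at the top, spans 2.43 across both types with 1 probe set near background, and all 7 Ube2d3 circles lie left of 0, while Ube2z, at the bottom, spans 0.03.

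Of the 100 probe sets common to the 2 array types, 3 are members, and they show how far one probe set moves between extracts of the same RNA. Ube2r2 1415768_a_at read 102, 99.3 and 127 on type A, below wild type in both pools (mean -0.2, SE 0.32). On type B it read 398, 412 and 189, above wild type in both (mean 1.08, SE 0.44, limma adjusted p = 0.231). That change of 1.28 was the largest of the 100, whose median was 0.26. Centred on the shared probe sets, its type B value was 0.46. Ube2g1 moved by 0.4 and Ube2v1 by 0.21, both without a change of side. The second Ube2r2 probe set on type B had a mean of -0.14.

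The rest of the pathway was taken as 123 genes in 6 lists, each gene read at its brightest probe set. On type A, 48 of 89 tested genes (53.9%) lay below wild type in both pools and 26 (29.2%) above, and 0 passed limma's test, with 32 lower (36%) and 4 higher at an unadjusted p under 0.05. On type B, 20 of 53 (37.7%) lay below and 18 (34%) above, and 0 passed, with 3 lower and 4 higher unadjusted. The percentages over all probe sets are those given above for the members.

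Activating enzymes on type A were split evenly. Uba3, the catalytic subunit of the NEDD8 E1, read 84.1, 206 and 368 (mean -1.31), while Sae1, of the SUMO E1, had a mean of 0.6. Conjugating enzymes without the Ube2 name also lay on both sides. Birc6, a giant E2 that inhibits apoptosis, read 89.2, 205 and 380 on type A (mean -1.33) and had a mean of -1.24 on type B, whereas Cdc34 read 332, 287 and 152 (mean 1.01).

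Of 25 tested RING ligases and cullin subunits on type A, 16 lay below wild type in both pools and 5 above, with a median of -0.52. Cul3, a cullin scaffold, read 76, 124 and 331, a mean of -1.56 (SE 0.36). Fbxo32, the atrogin-1 subunit best known from muscle wasting, read 33.6, 66.5 and 142 on type A and 194, 340 and 582 on type B. Anapc11, the RING subunit of the anaphase-promoting complex, lay above wild type on type B at 558, 439 and 185 (mean 1.37, limma adjusted p = 0.0945). Of 16 on type B, 4 lay below and 4 above.

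Deubiquitinases and SUMO proteases showed 18 of 31 below wild type in both pools and 9 above on type A, with a median of -0.61, and 11 of 20 below and 5 above on type B. Usp15, Usp9x and Senp6 had means of -1.54, -1.39 and -1.32. Of the HECT and U-box ligases, 7 of 17 lay below wild type in both pools and 5 above on type A (median -0.03), and 3 of 12 below and 7 above on type B (median 0.16). Ube3a, the HECT ligase lost in Angelman syndrome, read 105, 264 and 465 (mean -1.35) on type A and had a mean of -0.87 on type B.

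**Figure D5:**
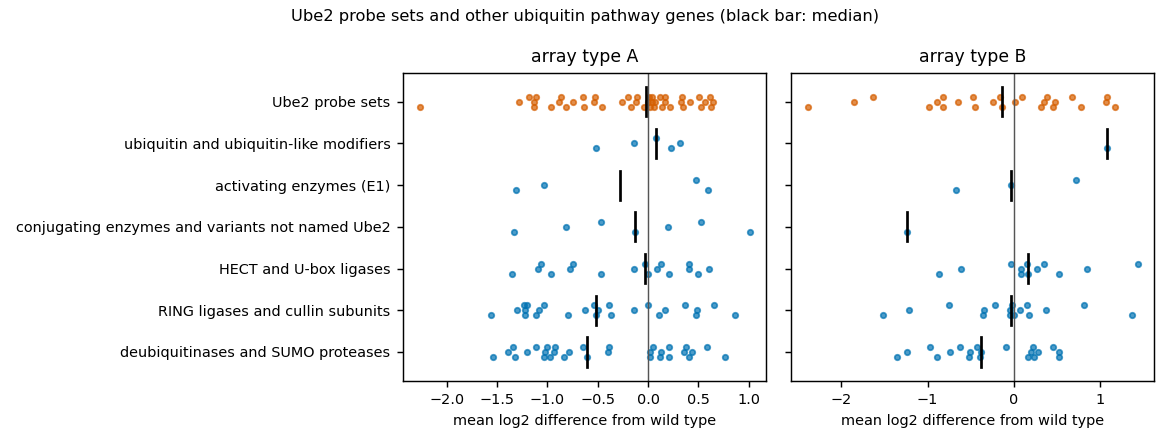
Mean log2 difference from wild type for Ube2 probe sets (top row) and for the other ubiquitin pathway genes by list, 1 point per probe set or gene, with a bar at each median. On array type A the medians of RING ligases and deubiquitinases are -0.52 and -0.61, while that of the Ube2 probe sets is -0.02. The list medians use the brightest probe set of each gene and the Ube2 median every tested probe set.

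Other measures were compared between the pools, of which some followed the labels and some did not. The cord's own markers were present, with 8 of 8 pan-neuronal and 6 of 6 astrocyte markers tested on type A. Pan-neuronal markers there summed to 11100 and 12800 in pools 1 and 2 against 16800 in wild type, and 6 lay below wild type in both pools. Oligodendrocyte markers summed to 20100 and 26900 against 32100, and astrocyte markers to 5800 and 5510 against 6040. These sums are of deposited intensities. The oligodendrocyte sum was mostly Mbp and Cnp, whose mean differences after normalization were -0.06 and -0.27. Of 6 oligodendrocyte markers tested, 3 lay below wild type in both pools and 1 above, with a median of -0.16. For astrocyte markers these were 2 and 2, with a median of -0.02. Of 4 microglia markers tested, 1 lay below wild type in both pools and 3 above, with sums of 1650 and 1520 against 1340. Endothelial markers, also 4, likewise gave 1 and 3, with sums of 446 and 488 against 462.

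On type B, 5 pan-neuronal markers summed to 22000 and 23300 against 20600, although 3 of the 5 lay below wild type in both pools. The 1 oligodendrocyte marker there, Ermn, read 999 and 2570 against 3870 and fell in limma's test (mean -1.72, adjusted p = 0.00988). Of 4 astrocyte markers on type B, 3 lay below wild type in both pools and 2 fell: Aqp4 (mean -1.84, limma adjusted p = 0.0115) and Slc1a2 (mean -1.18, limma adjusted p = 0.0403). The 4 summed to 11900 and 12400 against 12300. These calls are from the same fit as those of Ube2v2 and Ube2q2.

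Skeletal muscle markers summed to 4460 and 5700 in pools 1 and 2 against 180 in wild type on type A. There 11 of 11 lay above wild type in both and 7 rose in limma's test, against 0.0663% of all probe sets called. All but Acta1 (39.7) read below the filter's intensity of 36.7 in wild type. Those markers were thus tested only through the pools where they are high. On type B the 2 tested summed to 222 and 340 against 197. Liver markers, 4 of 5 above wild type in both pools on type A, summed to 374 and 9860 against 110, and the 1 on type B read 584 and 6740 against 50.9. The 18S control's 3'/5' signal ratio was 2.27 and 1.08 against 0.0493 on type A and 1.43 and 0.945 against 0.0605 on type B, whereas that of actin on type A was 1.37, 1.48 and 1.36.

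Egr3 itself read 24.9, 52.7 and 40.6 on type A, with pool 1 below and pool 2 above wild type. On type B it read 210, 107 and 75.3, with both pools above. Which part of the gene is altered is not given in the labels, so it is not known whether these probe sets can check them. The part of all these measures in the Ube2 differences was not tested.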

How the data were processed

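Total RNA pools of lumbar spinal cord were hybridised to 2 array types. The authors deposited 1 table per type with a linear intensity for each probe set; per the deposited values, the mean without the highest and lowest 2% was about 150.1 on type A and 150 on type B. The software was not given in the sources used here. No column was left unmapped. Control probe sets were removed, intensities were transformed as log2(intensity + 16) and quantile normalized within a type, and probe sets under the 40th percentile of the mean were left out. The 2 pools labelled Egr3-deficient were compared with the wild-type pool in limma 3.58.1 (R 4.3.3; lmFit, eBayes with trend, Benjamini-Hochberg within a type, threshold 0.05). Pairs of probe sets of one gene were fitted as log2 ratios within arrays, over all such pairs. The scripts were tested on simulated data.

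Every Ube2 gene could be named. Full values were given for up to 8 probe sets per type and direction with the largest smaller difference of the 2 pools, those past the threshold and the widest same-gene pairs; of each pathway list up to 3 genes. Other values were chosen after they were seen. Members and lists were chosen with earlier results of these data known. Precision is limited by the number of arrays. Alternatives covered normalization, pseudocount, filter, prior, scope of the adjustment and leaving out each pool labelled Egr3-deficient.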

Additional observations from a re-analysis of the deposited data

How the results depend on the processing

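Of 32 named Ube2 differences, none reversed in 316 recomputations with a test. Of these recomputations 298 kept their side of the threshold, 14 lost it and 4 gained it. Only 2 of the 32 had passed as reported, so most of the 298 never passed. The named differences were picked for lying on one side of wild type in both pools. The 64 recomputations that left out a pool, and had no test, therefore could not reverse. Settings that changed only the filter, prior or adjustment left each difference as it was, so those could not reverse either. The 2 calls on type B became 0 with no normalization beyond the deposited scaling, median centring, centring on shared probe sets, a pseudocount of 1, no filter, no trend in the prior, and adjustment over both types, and 4 with a pseudocount of 64. On type A the count of 0 became 1 (Ube2v2, limma adjusted p = 2.98e-05) with median centring, which also gave 7 pathway genes. The Ube2v2 difference itself hardly changed, at -2.2 against -2.27 as reported. On type B, 1 pathway gene passed at the 60th percentile filter and 1 with a robust prior. How many of all probe sets passed under each alternative setting was not counted. The calls under these settings are therefore not read as particular to the members or the pathway. Members at least 2-fold higher on type B, 1 as reported, numbered 3 with no normalization, 4 with median centring, and 0 with shared centring and with a pseudocount of 64; those lower, 1 as reported, numbered 7 with shared centring, 3 with no filter and 0 at the 60th percentile. On type A the 3 that were 2-fold lower became 5 with a pseudocount of 1. The type B median of -0.136 became -0.723 with shared centring and 0.098 at the 60th percentile. Leaving out each pool labelled Egr3-deficient in turn, which leaves values with no test, gave 4 to 8 members 2-fold lower and 0 to 1 higher on type A, 2 to 5 lower and 1 to 3 higher on type B, and medians of -0.172 to -0.019 and -0.228 to 0. The causes were not tested. Counts of members above or below wild type and medians of all probe sets under these settings were added after seeing the data. No paired analysis was possible because there is only 1 wild-type pool. Dim probe sets limit the values near the filter.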
